A study of Mus musculus with 8 samples.

Results

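Yap1, Nfe2l1, Creb1 and Mlx are 4 transcription regulators of growth and metabolism whose splicing was listed as changed in mouse hepatocytes that lost the splicing factor SRSF3. They are 4 of 638 genes in the 2 splicing tables of the study and hold 4 of its 862 local splicing variations, 13 of its 6866 junctions and 2 of its 498 junction-usage events. They were chosen by gene name from genes already listed for measured changes in these same samples, so their changes are given as a description, with no test. YAP1 is the coactivator that the Hippo kinase cascade holds in the cytoplasm and that drives TEAD factors, and it controls liver size and hepatocyte identity. NFE2L1, also called NRF1, is an endoplasmic reticulum-bound CNC bZIP factor that induces proteasome genes when protein breakdown fails and protects the liver against steatosis. CREB1 is a bZIP factor that is phosphorylated by protein kinase A on glucagon signalling and induces gluconeogenic genes. MLX is the bHLH leucine zipper partner that the glucose-sensing factor ChREBP (Mlxipl) needs to bind DNA and induce glycolytic and lipogenic genes.

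The AAV-Cre group held 4 libraries of cultured Srsf3 flox/flox hepatocytes exposed for 48 h to an adeno-associated virus (AAV) encoding Cre recombinase, labelled Srsf3-KO. The AAV-GFP group held 4 libraries of Srsf3 flox/flox hepatocytes exposed for 48 h to an AAV encoding GFP. All cells came from C57BL/6J livers and carry the floxed Srsf3 gene, the promoter of the viruses is not given in the labels, and nothing states whether the libraries of a group came from separate animals. SRSF3 is a serine and arginine-rich protein that binds short pyrimidine-rich RNA motifs and often favours inclusion of the exons it binds. Its own gene checks the labels: the share of Srsf3 exon 1 junctions joined to exon 2 was 0.157 in AAV-Cre and 0.998 in AAV-GFP cells, and the 2 junctions from exon 1 that pass exon 2 had 0.767 and 0.078 in AAV-Cre cells and 0.001 each in AAV-GFP cells.

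All splicing values below come from the authors' deposited tables, which give no value per library, so no SD or replicate test could be computed here. The second table, described further on, gives a change between the groups with the authors' p-value and q-value. The first table gives PSI (percent spliced in, written as a fraction), the share of a variation's junctions that each junction takes in a group, and an expected change in PSI, which is not the plain difference of the 2 PSI values. The expected change is printed here as AAV-Cre minus AAV-GFP, and a junction is called changed where its size is at least 0.2. The read depth behind each PSI is unknown, no expression levels were analysed here, and hepatocyte markers cannot be read from tables of spliced junctions.

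Of the 13 junctions of the 4 genes, 7 were changed by at least 0.2, or 53.8%, against 22.3% of all 6866 listed junctions. The background share depends on 3 windows of 100 kb that hold 5402 of the junctions in 13 genes; outside them 54.1% of 1464 junctions were changed, close to the share in the 4 genes. Listing goes with size, since 821 of the 862 variations hold at least 1 junction past 0.2, so the count says nothing particular about these genes. The median size of the expected change was 0.241 over the 13 junctions and 3.95e-05 over all listed junctions, and the median of the largest change per gene over 354 genes was 0.31. Ranked by the largest change per gene among 354 genes, Yap1 was number 69, Mlx number 121, Nfe2l1 number 206 and Creb1 number 270. In each gene the junction that led in AAV-GFP cells lost PSI in AAV-Cre cells, and it was no longer the leading one in Yap1.

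**Figure D1:**
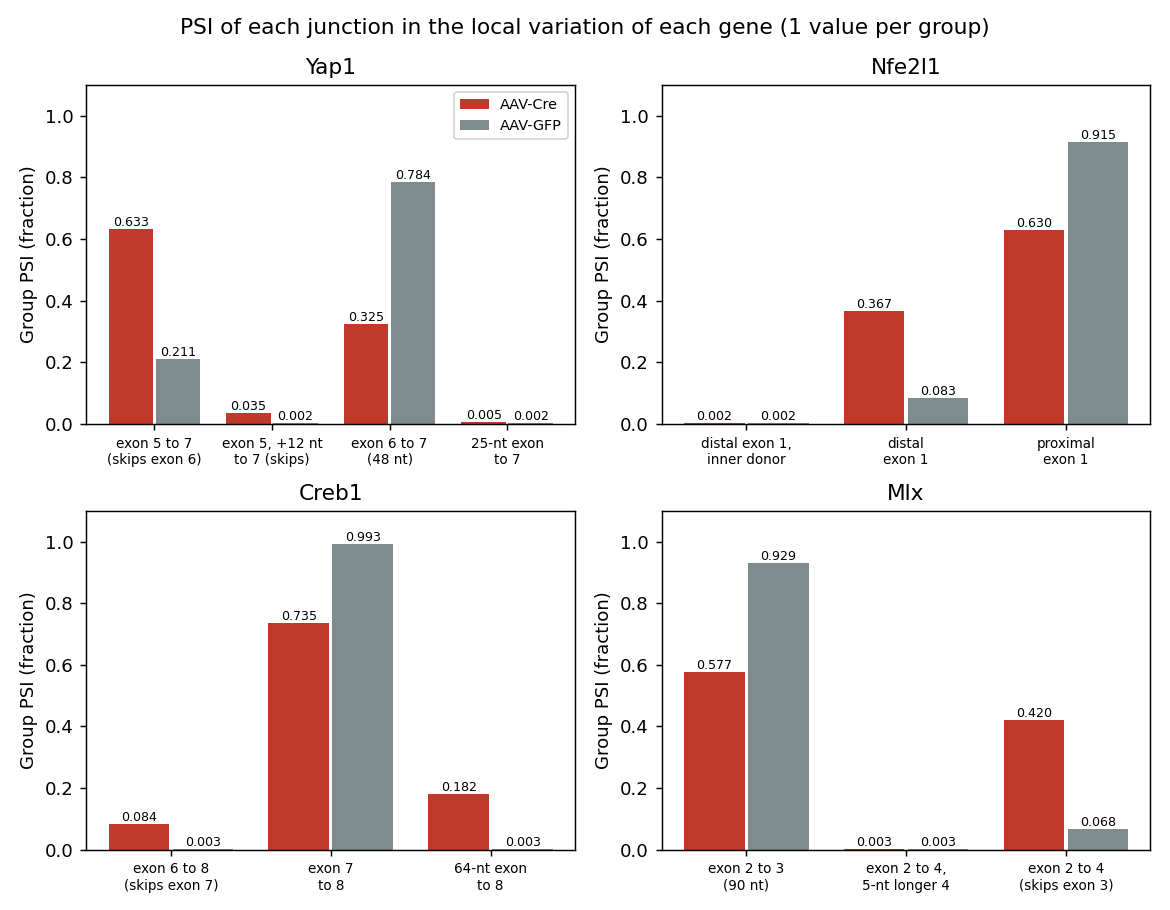
PSI of every junction in the local variation of Yap1, Nfe2l1, Creb1 and Mlx, with the AAV-Cre bar left of the AAV-GFP bar and 1 pooled value per group, without error bars. The exon 6 junction of Yap1 stands at 0.325 in AAV-Cre and 0.784 in AAV-GFP cells.

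The exons that carry the coding changes are shown to let their length, frame and motifs be read. They are exon 6 of Yap1 at chr9:7950492-7950539 on the minus strand, exon 7 of Creb1 at chr1:64574073-64574255 on the plus strand and exon 3 of Mlx at chr11:101088236-101088325 on the plus strand (mm10, from GENCODE vM21 transcripts, 5′ to 3′). Capitals mark the alternative exon, and lower case the 20 nt of the neighbouring exons on each side in the spliced transcript.
Yap1 exon 6: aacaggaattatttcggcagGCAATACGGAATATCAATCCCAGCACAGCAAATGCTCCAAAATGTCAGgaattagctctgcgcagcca
Creb1 exon 7: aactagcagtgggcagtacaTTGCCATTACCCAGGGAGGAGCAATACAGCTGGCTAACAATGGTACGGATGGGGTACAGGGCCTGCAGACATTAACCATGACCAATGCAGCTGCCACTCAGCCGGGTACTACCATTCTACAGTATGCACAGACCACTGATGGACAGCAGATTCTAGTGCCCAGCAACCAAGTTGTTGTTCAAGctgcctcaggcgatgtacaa
Mlx exon 3: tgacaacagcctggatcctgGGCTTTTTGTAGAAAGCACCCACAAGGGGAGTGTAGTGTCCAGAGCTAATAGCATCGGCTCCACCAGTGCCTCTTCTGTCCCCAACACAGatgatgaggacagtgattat
All 3 exons lie within the coding sequence, and their lengths of 48, 183 and 90 nt are whole numbers of codons (16, 61 and 30), so each can be left out without a shift of frame. For each of these genes, no premature stop arose in the transcript computed without the exon.

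In the first table, AAV-Cre cells mostly skipped exon 6 of Yap1, which AAV-GFP cells mostly included. The second table, described further on, gives the same exon a smaller change, -0.234, which was not called (the authors' q = 0.471). The variation collects the junctions that enter exon 7 (chr9:7938408-7938538). The junction from exon 6 had a PSI of 0.325 in AAV-Cre and 0.784 in AAV-GFP cells, an expected change of -0.465. The annotated junction from exon 5, which skips exon 6, had 0.633 in AAV-Cre and 0.211 in AAV-GFP cells, an expected change of 0.424. Exon 6 thus held most of the PSI in AAV-GFP cells and the skipping junction most of it in AAV-Cre cells.

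A second skipping junction of Yap1 left exon 5 at a donor 12 nt further downstream, which GENCODE vM21 does not hold. Its PSI was 0.035 in AAV-Cre and 0.002 in AAV-GFP cells, and its expected change was 0.00106. This donor took 5.24% of the skipping PSI in AAV-Cre and 0.939% in AAV-GFP cells. Both skipping junctions summed to 0.668 in AAV-Cre and 0.213 in AAV-GFP cells, 3.14 times as much. Human YAP1 isoforms are described that differ by the counterpart of exon 6 and by a longer form of exon 5. The fourth junction came from a small exon in the intron before exon 7, annotated with 13 or 25 nt in nonsense-mediated decay transcripts alone; it had 0.005 in AAV-Cre and 0.002 in AAV-GFP cells.

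Exon 6 encodes residues 314 to 329 of the 488-residue YAP1 protein, and the annotated isoform without it has 472 residues. The segment lies after both WW domains, the modules that bind PPxY motifs of LATS kinases and other partners, whose patterns were found at residues 162 to 187 and 221 to 246. It falls in the activation region, in the stretch that in human YAP1 is described as a leucine zipper interrupted by this insert. The exon has 43.8% GC, and 28.3% of 513 internal exons of its length in protein-coding transcripts have less. It holds none of the 8 pentamers searched as SRSF3 motifs on the sense strand (A or T first, C next, A or T at both middle places after it, and C last), which 34.1% of exons of that length hold, and no CATC, which 22.6% hold.

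In Nfe2l1 the change lay in the choice of first exon, ahead of the annotated coding sequence; protein was not measured. The variation collects the junctions that enter exon 2 (chr11:96827733-96828223), which come from a distal first exon of 150 nt at chr11:96829819-96829968 or a proximal one of 92 nt at chr11:96829411-96829502, both on the minus strand. The sequence before each start is where a promoter would lie, so the 100 bases upstream of the distal start (chr11:96829969-96830068) and of the proximal start (chr11:96829503-96829602) are shown from RefSeq windows (GRCm38.p6, minus strand, 5′ to 3′). Capitals mark matches to TGACG, a core of the sites that CREB factors bind, to CCAAT and to the GC box GGGCGG, on either strand (ATTGG is CCAAT read on the other strand).
Nfe2l1 upstream of distal start: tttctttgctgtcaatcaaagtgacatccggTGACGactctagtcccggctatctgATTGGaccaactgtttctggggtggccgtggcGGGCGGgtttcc
Nfe2l1 upstream of proximal start: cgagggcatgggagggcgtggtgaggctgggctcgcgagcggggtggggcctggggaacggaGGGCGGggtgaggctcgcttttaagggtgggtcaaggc
The junction from the distal first exon had a PSI of 0.367 in AAV-Cre and 0.083 in AAV-GFP cells, an expected change of 0.291. The junction from the proximal first exon had 0.63 in AAV-Cre and 0.915 in AAV-GFP cells, an expected change of -0.292. The proximal exon led in both groups, and the distal exon took a larger share in AAV-Cre cells. An inner donor of the distal exon had 0.002 in both groups, and with it the distal exon summed to 0.369 in AAV-Cre and 0.085 in AAV-GFP cells, a ratio of 4.34. A PSI over first exons reads the choice of start site together with splicing, and the tables do not tell them apart.

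Both first exons of Nfe2l1 are noncoding, and the transcripts share 516 nt of 5′ leader after the first exon and the same annotated protein of 741 residues. The leader is 666 nt long from the distal start and 608 nt from the proximal start, and the starts lie 466 nt apart. The distal exon has 75.3% GC and no ATG, whereas the proximal exon has 60.9% GC and 1 ATG, at exon base 65, which opens a frame of 25 codons that ends before the main ATG. The part of the leader after the first exon, common to both, holds 3 further ATGs. Over the 300-base window from 250 bases before to 50 after each start, TGACG was found 2 times at the distal and 0 times at the proximal start (20.8% of 32851 RefSeq windows hold it on either strand). CCAAT was found 4 times at the distal and 0 times at the proximal start (37.4% of windows). GGGCGG was found 3 times at the distal and 2 times at the proximal start (35.7% of windows). The TATA box motif TATAAA (13.6% of windows), the E-box CACGTG (7.15%), the antioxidant response core TGACNNNGC (12.4%) and the TEAD motif CATTCC (14.7%) were in neither window. The distal window had 60.3% GC and 18 CG dinucleotides, and the proximal window 67.7% GC and 25 CG dinucleotides.

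In Creb1, AAV-Cre cells used 2 routes into exon 8 (chr1:64576179-64576329) that were close to 0 in AAV-GFP cells. The junction from exon 7 had a PSI of 0.735 in AAV-Cre and 0.993 in AAV-GFP cells, an expected change of -0.241, the smallest of the 7 past the threshold. The junction from a 64-nt exon at chr1:64575196-64575259, between exons 7 and 8, had 0.182 in AAV-Cre and 0.003 in AAV-GFP cells. The junction from exon 6 that skips exon 7, absent from GENCODE vM21, had 0.084 in AAV-Cre and 0.003 in AAV-GFP cells. The usual junction still led in AAV-Cre cells, and the other routes together took 0.266 in AAV-Cre and 0.006 in AAV-GFP cells, a ratio of 44.3. That ratio rests on 2 AAV-GFP values of 0.003 at unknown depth. By expected change neither route passed 0.2, so neither was called changed.

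The 2 measures of change differ most at these Creb1 junctions. The 64-nt exon had an expected change of 0.0955, the largest below the threshold, against a PSI difference of 0.179. The skipping junction had an expected change of 0.0114 against a PSI difference of 0.081. For Yap1's extended donor the expected change was 0.00106 and the PSI difference 0.033. At the 7 changed junctions both measures were past 0.2 with the same sign.

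**Figure D2:**
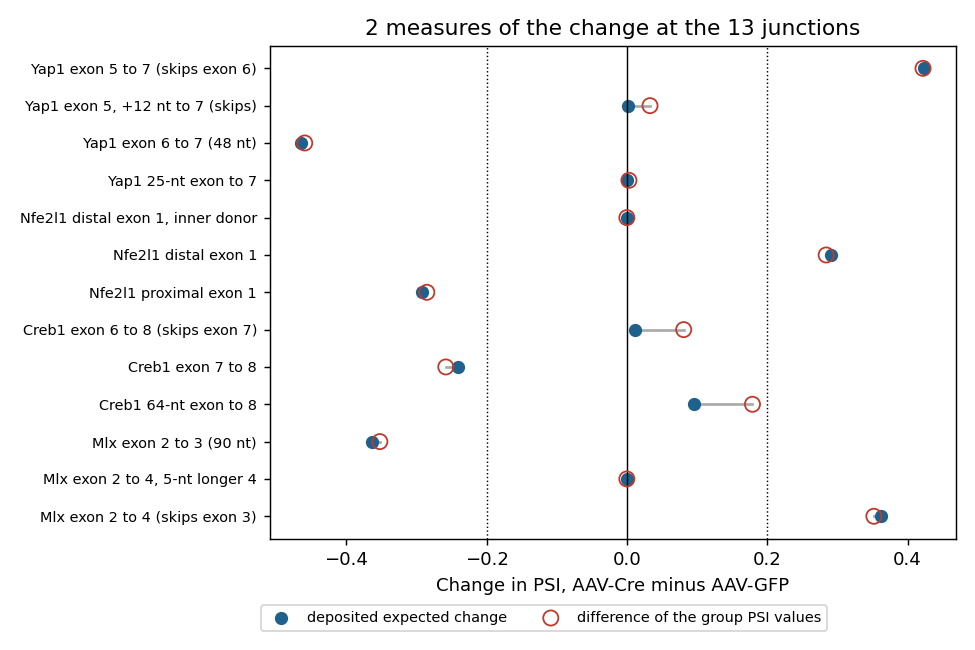
Expected change in PSI (filled points) and difference of the group PSI values (open circles), both AAV-Cre minus AAV-GFP, at the 13 junctions, with dotted lines at a size of 0.2. The pairs lie apart at the 64-nt exon of Creb1, with 0.0955 and 0.179, and at its skipping junction, with 0.0114 and 0.081.

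Exon 7 of Creb1 encodes 61 codons, residues 183 to 244 of 341, in the glutamine-rich activation domain that lies between the kinase-inducible domain and the bZIP domain. Of its 60 whole codons 11 encode glutamine and 10 threonine. The phosphorylation site pattern of the kinase-inducible domain was found at residues 130 to 134 and the basic region of the bZIP domain at 293 to 301, so a transcript without exon 7 would keep both in a protein of 280 residues. Among the coding isoforms of Creb1 in GENCODE vM21 whose coding length is a whole number of codons, none lacks the exon. It has 51.4% GC and 2 of the SRSF3 pentamers, ACTAC at exon base 108 and TCTAC at base 116. Of 682 internal exons of its length 80.9% hold at least 1. It holds no CATC, which 66% of those exons hold.

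The 64-nt exon of Creb1 is annotated in 1 transcript, of the nonsense-mediated decay class, and its length leaves a remainder of 1 base after whole codons. It is shown between the last 20 bases of exon 7 and the first 20 of exon 8 (chr1, plus strand, mm10, GENCODE vM21), with the first stop codon in the frame of exon 7 in capitals.
Creb1 64-nt exon: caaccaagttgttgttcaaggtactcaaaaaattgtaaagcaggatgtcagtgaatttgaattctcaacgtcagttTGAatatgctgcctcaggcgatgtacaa
The stop TGA begins at base 57 of the exon and ends the reading frame after 262 of 341 residues, before the bZIP domain, with 156 nt from the stop to the last exon junction. This frame was computed for exon 7 joined to the 64-nt exon; the table gives the junction into exon 8 and does not say which exon came before. In the annotated transcript an earlier exon already ends the frame. The 64-nt exon has 32.8% GC, and 2.26% of 796 exons of its length have less. It holds 1 SRSF3 pentamer, TCAAC at base 45, which class 43.3% of exons of that length hold.

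For Mlx, exon 3 was skipped in a larger share of transcripts of AAV-Cre cells, and it is the 1 of the 4 genes called in both tables. The variation collects the junctions that leave exon 2 (chr11:101087754-101087790). The junction to exon 3 had a PSI of 0.577 in AAV-Cre and 0.929 in AAV-GFP cells, an expected change of -0.363. The skipping junction to exon 4 had 0.42 in AAV-Cre and 0.068 in AAV-GFP cells, an expected change of 0.362. A further skipping junction used an acceptor 5 nt upstream, which shifts the frame, and had 0.003 in both groups. In this table inclusion still led in AAV-Cre cells, and skipping in all summed to 0.423 in AAV-Cre and 0.071 in AAV-GFP cells, a ratio of 5.96. The second table, described further on, gives the exon a larger change, -0.509, which would leave inclusion below skipping in AAV-Cre cells.

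Exon 3 of Mlx encodes 30 codons, residues 81 to 111 of 298, ahead of the bHLH region, whose DNA-contacting basic part was found at residues 134 to 142. Skipping it from the longest transcript gives 268 residues and leaves the bHLH leucine zipper in frame. Among annotated coding isoforms with a whole number of codons, those of 298 and 244 residues hold the exon, and those of 214 and 127 residues do not. Of its 29 whole codons 8 encode serine and 3 threonine. The exon has 53.3% GC, more than 66.4% of 1472 internal exons of its length, and holds 1 SRSF3 pentamer, TCTTC at base 72 (54.8% of those exons hold one), and 1 CATC (36.5% hold it).

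**Figure D3:**
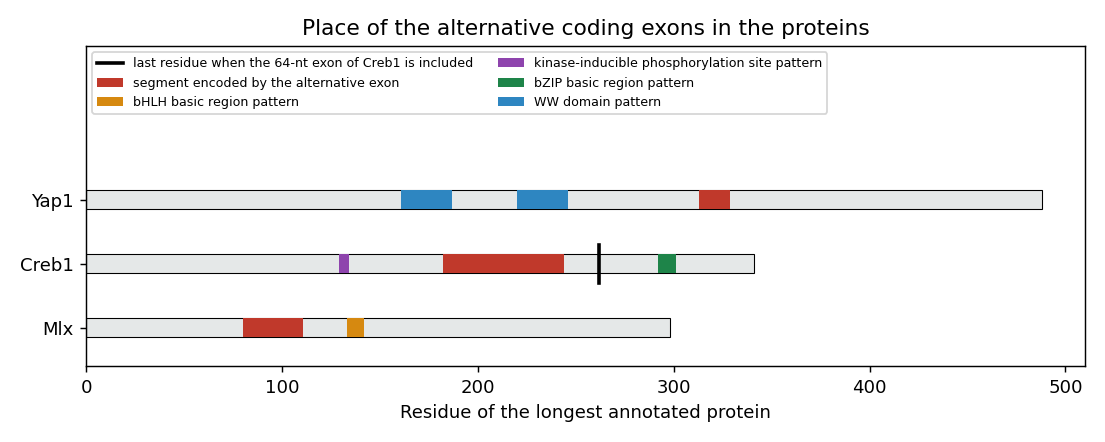
The YAP1, CREB1 and MLX proteins drawn to scale in residues, with the segment of each alternative exon, the domain patterns found in the sequence, and the last residue before the stop in the 64-nt exon of Creb1. The segments, at residues 314 to 329, 183 to 244 and 81 to 111 in that order, overlap none of the marked patterns, which are short cores of domains. The activation regions that hold the YAP1 and CREB1 segments are not drawn.

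The second table lists junction-usage events at p below 0.05 with the authors' q-value, and an event is called here at q of 0.05 or less with a change of at least 0.1. It holds cassette events for the exons of Mlx and Yap1 and lists none for Nfe2l1 or Creb1. Of the 2 events 1 was called, against 11.4% of all 498 listed events. The change in PSI of Mlx exon 3 was -0.509 in the authors' deposited table, with p = 9.6e-06 and q = 0.00444, number 3 by q of 131 cassette events. That of Yap1 exon 6 was -0.234, with p = 0.0227 and q = 0.471 in the authors' deposited table, number 94 by q. Both events have the sign of the first table, but the order of the genes is turned: Yap1 had the larger change in the first table and Mlx in the second.

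**Figure D4:**
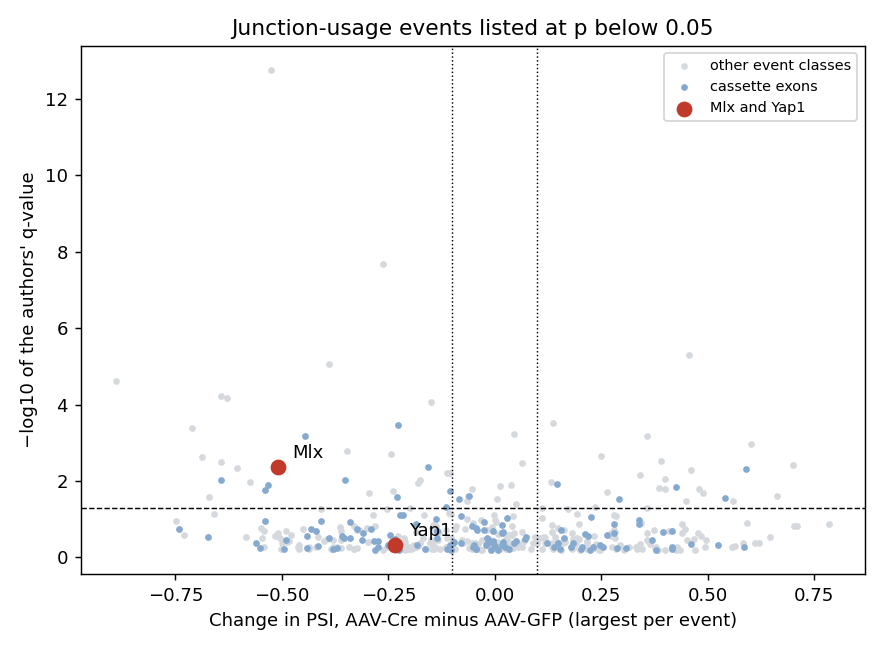
Change in PSI, AAV-Cre minus AAV-GFP, against −log10 of the authors' q-value for the listed junction-usage events, with a dashed line at q of 0.05 and dotted lines at a size of 0.1. The change of largest size in each event is drawn. Mlx lies above the dashed line at -0.509 and Yap1 below it at -0.234.

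Pathway lists were read against all 21924 protein-coding genes of GENCODE vM21, of which 348, or 1.59%, were called in either table; the 4 chosen genes are no independent evidence in their own lists. Of 27 Hippo pathway genes and YAP partners 1 was called, Yap1 itself, and of 20 YAP target genes, 18 of them annotated under the symbol used, 0 were called or listed. Of 23 genes of the CREB family, its coactivators and protein kinase A 1 was called, Creb1 itself, and of 10 gluconeogenic genes, 9 of them annotated, 0 were called or listed. Of 13 genes of the MLX and MYC network 1 was called, Mlx itself. No other gene of these 5 lists was called.

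Called genes besides the 4 stood in the other lists. Of 19 CNC and small Maf factors and NFE2L1 processing genes 2 were called, Nfe2l1 and Ogt, the O-GlcNAc transferase, whose most changed junction had a PSI of 0.624 in AAV-Cre and 0.882 in AAV-GFP cells. Ogt was also listed in the second table, as an alternative 3′ splice site event with a change of -0.46 and q = 0.468, and was not called there. For such events the value of largest size in the event is given, so its sign depends on the site it belongs to. Of 31 proteasome genes 1 was called, Psmd1, a base subunit of the regulatory particle, with 0.539 in AAV-Cre and 0.765 in AAV-GFP cells. Of 15 glycolytic and lipogenic genes 2 were called. For G6pdx, the first enzyme of the pentose phosphate pathway, the most changed junction had 0.816 in AAV-Cre and 0.18 in AAV-GFP cells. For Khk, the ketohexokinase of fructose metabolism, it had 0.89 in AAV-Cre and 0.644 in AAV-GFP cells. Of 42 other liver transcription factors 0 were called, and 2 were listed in the second table without a call. Both are alternative 5′ splice site events. Cebpg, a C/EBP family factor, had a change of 0.197 with q = 0.133, and Srebf1, the factor that induces lipogenic genes, had q = 0.0438 but no finite change. Over all lists 8 of 194 annotated genes were called, or 4.12%. With the chosen genes left out of both counts, 4 were called, or 2.11%. The lists were chosen with earlier results of these data known, so this share is not an independent count either. The share of 1.59% is over all protein-coding genes, expressed in hepatocytes or not, so it is not a matched base for these lists.

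**Figure D5:**
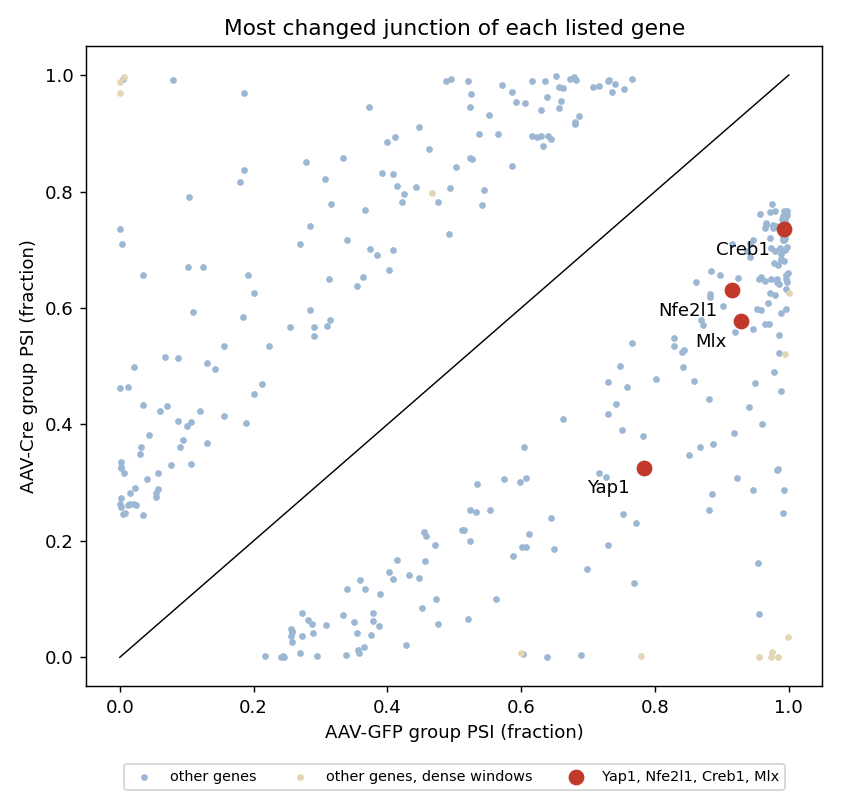
AAV-Cre group PSI (vertical axis) and AAV-GFP group PSI (horizontal axis) at the most changed junction of each of 354 genes of the first table, with the line of equal PSI. Yap1, Nfe2l1, Creb1 and Mlx lie below the line, at 0.325, 0.63, 0.735 and 0.577 in AAV-Cre cells.

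The genes with the most similar pair of PSI values at their most changed junction are given by distance in the plane of AAV-Cre and AAV-GFP PSI, over 2 group values and 340 other genes outside the 3 dense windows. For Yap1 the nearest was 1110038B12Rik, with 0.38 in AAV-Cre and 0.782 in AAV-GFP cells (distance 0.055), then Zcchc6, with 0.31 in AAV-Cre and 0.727 in AAV-GFP cells. For Nfe2l1 it was Ppp1r37, with 0.651 in AAV-Cre and 0.924 in AAV-GFP cells (distance 0.0228), then Hnrnpa2b1, with 0.604 in AAV-Cre and 0.902 in AAV-GFP cells. For Creb1 it was Ints5, with 0.738 in AAV-Cre and 0.997 in AAV-GFP cells (distance 0.005), then Brd2, with 0.73 in AAV-Cre and 0.996 in AAV-GFP cells. For Mlx it was Sin3b, with 0.558 in AAV-Cre and 0.92 in AAV-GFP cells (distance 0.021), then Tmbim6, with 0.564 in AAV-Cre and 0.947 in AAV-GFP cells. Yap1 lay farther from its nearest gene than the other 3 did from theirs.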

How the data were processed

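Stranded poly(A) libraries of total RNA from 8 hepatocyte samples were sequenced as paired reads, per the labels' protocols. The submitters' processing notes name FastQC, STAR and mm10; for versions and roles the entry is: not given in the sources used here. The authors deposited 2 tables of multi-valued cells: PSI fractions, expected changes and a probability in the layout of MAJIQ and VOILA per the file headers, and junction-usage events with changes, p-values and q-values made with JUM per the file headers and listed at p below 0.05. The deposited expected change ran as AAV-GFP minus AAV-Cre (r = 0.996 across junctions with that PSI difference) and was turned. The probability column was not used for calls, because all 4155 junctions with a change under 0.02 carry 0.95 or more. Values are pooled per group, so no test was made here, and their depth is unknown.

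From these values, junctions were called at a size of 0.2 and events at q of 0.05 with a size of 0.1; a window of 100 kb with 8 or more listed variations was called dense. Annotation and exon sequences came from GENCODE vM21, promoters from RefSeq (GRCm38.p6), which matched all 4 genes. Every junction of the 4 genes is named; per pathway list up to 4 called genes by size, and per gene the 2 nearest in PSI. The members and lists were chosen with earlier results of these data known. The call rules, the dense-window rule and the search for a stop codon were tested on made-up data, with 400 simulated junctions. The reading of the multi-valued cells was not part of that test. Python 3.11.15, numpy 2.4.6 and pandas 2.3.3 were used. Domain patterns were matched on translated annotated transcripts; exons of the same length are internal exons of its protein-coding transcripts.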

Additional observations from a re-analysis of the deposited data

How the results depend on the processing

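Of 41 alternative values, 30 stayed close to the reported ones. Only the changes at the 13 junctions carry a sign, and none of them turned, while the other alternatives are counts or shares. Some could not move, such as lists with 0 called genes read at a stricter size, so the 30 are no measure of robustness. With the difference of the group PSI values in place of the expected change, the skipping junction of Creb1 had 0.081 and its 64-nt exon 0.179. With a size of at least 0.3, 4 junctions of the 4 genes were changed in place of 7, those of Yap1 and Mlx. The same size left 0 called genes of the CNC, Maf and NFE2L1 processing list, 0 of the proteasome list, 0 of the CREB list, 1 of the glycolytic and lipogenic list and 3 over all lists. With p in place of q, 2 events of the 4 genes were called, that of Yap1 added, and 1 of the other liver transcription factors, Cebpg. Without the dense windows 54.1% of listed junctions were changed. No paired analysis was possible because the deposited tables hold no value per library, and leaving out single libraries could not be run for the same reason. Inclusion read from the variation on the other side of each exon was not run, since each gene has 1 listed variation. Unknown depth limits the small PSI values, such as 0.002 or 0.003.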
